A study of Mus musculus with 17 samples.

Results

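The genes described here are 29 genes of cholesterol synthesis and sterol handling, chosen by name from a fixed list. The choice was made with earlier results of these data known. All 29 were found in a table of 55487 mouse genes, by matching Ensembl identifiers to symbols. Kidney transcripts of male mice aged 16 weeks had been sequenced from their 3′ ends, with 1 library per animal. The db/db group (9 animals) was homozygous for the mutant leptin receptor allele Leprdb; such mice are obese and diabetic. The db/m group (8 animals) had 1 copy of that allele and served as lean controls. Both groups share the BKS background. Groups follow the sample titles. In all 17 samples the genotype field names the other group than the title does; if that field held the truth, each direction below would be inverted.

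Cells build cholesterol from acetyl-CoA in a long chain of reactions. The mevalonate arm makes the isoprenoid farnesyl diphosphate, which also feeds protein prenylation and ubiquinone, and the sterol arm turns squalene into lanosterol and then cholesterol. Transcription factors of the SREBP family raise these enzymes together when membrane sterol is low: SCAP carries SREBP out of the endoplasmic reticulum, and INSIG proteins hold it back. Liver X receptors (LXR) answer to oxysterols and raise genes of sterol export such as Abca1. In the kidney, tubule cells make sterol for their extensive membranes and also take up lipoproteins and sterol-binding proteins.

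Libraries held 3256427 to 7627747 gene counts, and the 29 genes together took 0.0984% to 0.141% of them. Of the 29, 25 had enough counts to be tested; Idi1, Tm7sf2, Srebf1 and Insig1 did not. Levels are given as CPM, that is, counts relative to a common library size after TMM scaling. Because 3′ counting of a gene depends on where its transcripts were annotated to end, levels were not compared between genes. Even Gapdh, which every cell uses, had only 25 counts over the db/db libraries and 18 over the db/m libraries, so a low count need not mean low expression. In a principal component analysis of log2 CPM, the first component held 32.8% of the variance. On it 5 libraries lay beyond 40 in size: db/db replicates 1, 7 and 8 (at -40.6, 43.1 and 79.2) and db/m replicates 4 and 8 (at -41.9 and -44.3). They are called below the 5 libraries that stood apart. The limit of 40 was set after the data were seen, and db/m replicate 2, at -34.3, came next. None of 9 markers of adrenal cortex, a gland rich in sterol enzymes that lies against the kidney, had enough counts to test. The steroid synthesis genes Cyp11b2 and Cyp21a1 and the regulator Nr5a1 had no count in any library, Cyp11a1 had 2 counts over db/db and 1 over db/m, and Cyp11b1 had 0 over db/db and 1 over db/m. Over the db/db libraries Mc2r had 10 counts, Hsd3b1 32, Star 76 and Mrap 86. Over the db/m libraries Mc2r had 1 count, Hsd3b1 13, Star 68 and Mrap 48. Their part in the results was not tested.

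Between the genotypes, these genes held 1 large difference. Cyp51, the lanosterol demethylase that takes the first step from lanosterol towards cholesterol, was 2.50-fold lower in db/db. Soat1, which esterifies cholesterol for storage, was lower by a smaller amount. No member was called higher by edgeR (quasi-likelihood test, Benjamini-Hochberg adjusted p under 0.05), although 6 of the 25 had a higher level in db/db at an unadjusted p under 0.05, and DESeq2 called 1, Msmo1. In all, 2 of 25 tested members were called, against 7.39% of 12131 tested genes (3.91% higher and 3.49% lower), and 9 of 25 had an unadjusted p under 0.05, against 21.1% of all tested genes. A share of 2 in 25 is close to that background, so the members as a list did not stand out by their number of calls. The median log2 fold change was 0.04 over the 25 members and 0.00 over all tested genes. Positive values were seen for 17 of the 25 members and for 50.5% of all tested genes. Without the 5 libraries that stood apart, 12 of the 25 members were positive and their median was -0.000355; without db/db replicate 7 alone, 14 were positive.

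**Figure D1:**
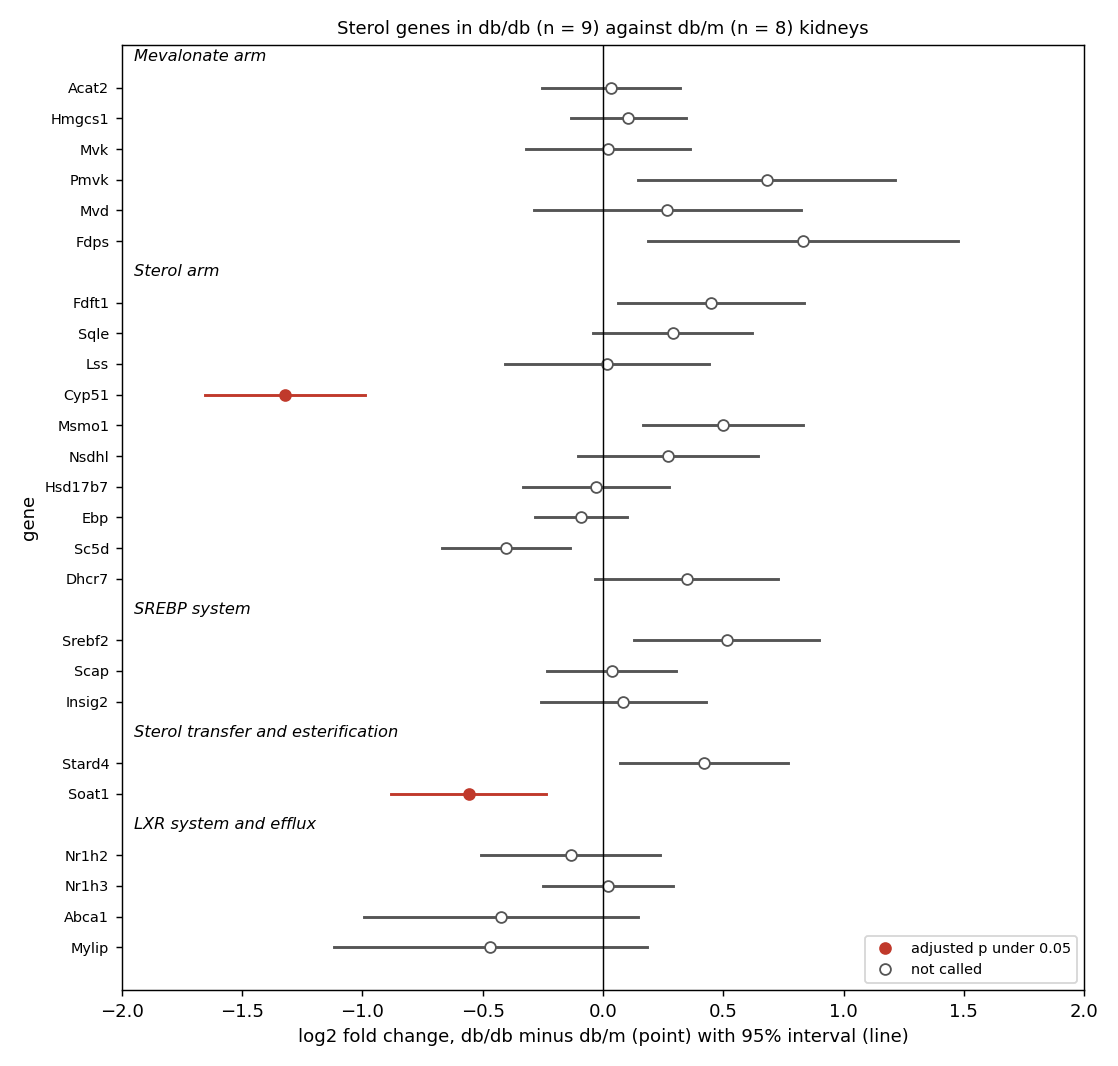
Log2 fold change of each of the 25 tested genes, db/db minus db/m (point), with its 95% interval (line), grouped by role; the horizontal axis is log2 and filled red points passed edgeR's test at an adjusted p under 0.05. Cyp51 lies at -1.32 and Soat1 at -0.56, while the other 15 tested enzymes of both synthesis arms lie between -0.40 and 0.83.

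Cyp51 was measured at 54.6 to 149.7 CPM in db/db kidneys, with a median of 94.8 CPM. In db/m kidneys it was at 198 to 295 CPM, with a median of 264 CPM. All 9 db/db animals lay below all 8 db/m animals. It was the only tested member whose groups did not overlap, which was the case for 1.78% of all tested genes. In log2 terms db/db lay at -1.32 relative to db/m (95% interval -1.66 to -0.99, SE 0.16; edgeR adjusted p = 9.25e-06), which ranked Cyp51 41st by p-value among the 423 genes called lower. In this bulk tissue, fewer cells that make Cyp51 and less of its RNA per cell cannot be told apart.

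Genes that mark S3, the final stretch of the proximal tubule, moved in the same direction: 7 of 9 tested markers were called lower and 1 higher. Their summed level ran from 1990 to 2814 CPM in db/db and from 3563 to 4381 CPM in db/m, again without overlap. Among them were the amino acid transporter Slc7a13 (log2 fold change -2.39, SE 0.20) and the oxysterol hydroxylase Cyp7b1 (-3.78, SE 0.31). The 1 marker called higher, Slc5a10, was at 1.10 (log2 fold change, SE 0.13), with all db/db animals above all db/m animals, so the list did not move as one. Of 10 genes that mark S1 and S2, 2 were called higher, with a median log2 fold change of 0.33 over the list. Of the markers of distal convoluted and connecting tubule 5 of 7 were called higher, and of those of collecting duct 7 of 9. The shares over all tested genes were 3.91% higher and 3.49% lower. The part of these cell types in the Cyp51 result was not tested.

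Cyp51 was set against Lss and Msmo1, which act before and after it. Lss, lanosterol synthase, makes the substrate of Cyp51. It was at 3.46 to 8.67 CPM in db/db kidneys (median 6.00) and at 3.73 to 8.28 CPM in db/m kidneys (median 6.14), and the groups overlapped throughout (log2 fold change 0.02, 95% interval -0.41 to 0.44). Msmo1, a sterol methyl oxidase that acts further along, after a reductase step, was at 13.2 to 38.2 CPM in db/db (median 21.4) and at 13.4 to 21.6 CPM in db/m (median 15.2). In log2 terms db/db was higher by 0.50 (95% interval 0.17 to 0.83, SE 0.16; edgeR adjusted p = 0.0615), short of the threshold. It passed without db/db replicate 2 (adjusted p = 0.0194 by edgeR), without db/m replicate 2 (adjusted p = 0.0411 by edgeR) and by DESeq2 (adjusted p = 0.0302).

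The difference of Cyp51 from each of them was taken within each library and tested between the groups. These ratios reuse the Cyp51 values above and were chosen with earlier results of these data known. They are therefore not support for the fall of Cyp51 that is separate from its edgeR call. On the log2(CPM + 1) scale, Cyp51 minus Msmo1 averaged 2.15 ± 0.44 in db/db and 3.95 ± 0.25 in db/m (SD, n = 9 and 8), a difference of -1.81 (exact permutation p = 4.11e-05, two-sided, the smallest that 24310 arrangements can give; 8.23e-05 adjusted over 2 ratios). The db/db values ran from 1.41 to 2.69 and the db/m values from 3.55 to 4.37, without overlap. Cyp51 minus Lss averaged 3.85 ± 0.57 in db/db and 5.21 ± 0.33 in db/m (SD, n = 9 and 8), a difference of -1.36 (exact permutation p = 0.000165, two-sided, and the same after adjustment over the 2 ratios). For this ratio the groups overlapped, with db/db replicate 5 at 4.90 above db/m replicates 4 and 8 at 4.80 and 4.63. The low count of Lss, 244 over db/db and 228 over db/m, makes that ratio less precise. Lss also overlaps an annotated antisense gene, including the 3′ ends of both, so its counts are less certain.

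**Figure D2:**
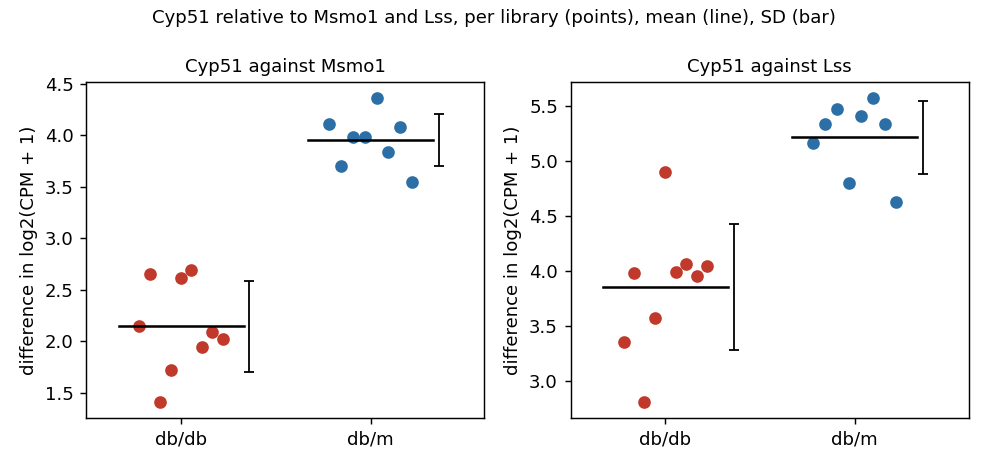
Cyp51 relative to Msmo1 (left panel) and to Lss (right panel), as a difference in log2(CPM + 1) per library (points), with the group mean (line) and SD (bar), for 9 db/db and 8 db/m animals. All db/db points lie below all db/m points for Msmo1, and db/db replicate 5, at 4.90, reaches into the db/m range for Lss.

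The promoters of Cyp51, of Lss and Msmo1, against which it was set, and of Hmgcs1, a textbook SREBP target of the mevalonate arm, are shown because SREBP is known to regulate all 4. Each is the stretch of 250 bases that ends just before the RefSeq transcript start (build GRCm38.p6), written on the strand of the gene. The bases just after that start were found in a GENCODE M21 transcript of the gene for Msmo1, but not for Cyp51, Lss or Hmgcs1. Distances given below therefore depend on the RefSeq start. Capitals mark the letters searched for on both strands: CCAAT (the NF-Y box, ATTGG on the other strand), TCACNCCAC (a sterol regulatory element) and TGACGTCA (the cAMP response element). The stretches lie at chr5:4104698-4104947 (minus strand) for Cyp51, chr10:76531355-76531604 (plus) for Lss, chr8:64733579-64733828 (minus) for Msmo1 and chr13:119690101-119690350 (plus) for Hmgcs1.
Cyp51: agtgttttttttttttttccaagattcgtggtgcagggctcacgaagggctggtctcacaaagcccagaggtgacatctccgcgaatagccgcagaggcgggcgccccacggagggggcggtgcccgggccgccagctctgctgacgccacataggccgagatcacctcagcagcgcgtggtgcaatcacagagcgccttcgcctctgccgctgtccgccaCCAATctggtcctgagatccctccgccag
Lss: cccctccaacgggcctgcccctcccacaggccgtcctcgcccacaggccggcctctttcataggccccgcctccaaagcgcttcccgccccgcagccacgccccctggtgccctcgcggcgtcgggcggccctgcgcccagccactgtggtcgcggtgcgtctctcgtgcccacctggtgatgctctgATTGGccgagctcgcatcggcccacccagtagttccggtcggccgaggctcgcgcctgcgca
Msmo1: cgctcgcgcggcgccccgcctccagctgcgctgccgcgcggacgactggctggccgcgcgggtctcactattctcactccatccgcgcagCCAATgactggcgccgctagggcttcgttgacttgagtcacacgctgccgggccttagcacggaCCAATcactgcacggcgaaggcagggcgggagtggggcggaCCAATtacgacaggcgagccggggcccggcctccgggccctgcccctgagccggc
Hmgcs1: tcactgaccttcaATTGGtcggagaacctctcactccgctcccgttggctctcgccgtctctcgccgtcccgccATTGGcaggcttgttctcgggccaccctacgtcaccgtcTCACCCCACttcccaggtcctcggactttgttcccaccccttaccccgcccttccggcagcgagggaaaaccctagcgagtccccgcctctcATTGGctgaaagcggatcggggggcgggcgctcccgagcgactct

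RefSeq promoters of 300 bases (250 before and 50 after the start) were at hand for 25 of the 29 genes. CCAAT stood in 20 of the 25, and in 41.1% of 27025 genes with a promoter; Cyp51 had 1 match, opening 29 bases before the start, Lss 1 at 62 bases, and Msmo1 3, at 160, 96 and 55 bases. TCACNCCAC stood in 1 of the 25, Hmgcs1 (137 bases before the start), and in 1.44% of all genes. TGACGTCA stood in none of the 25 and in 2.03% of all genes. The 3 motifs share no letters in the stretches printed. These are exact matches of letters only and were not related to the levels. Other forms of these elements were not searched for, so the lack of a match does not mean that an element is absent.

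Cyp51 lies on chromosome 5 and ends against Akap9, a scaffold protein gene on the opposite strand. In the GENCODE M21 annotation the 2 genes overlap by 166 bases at the 3′ ends of both, where 3′ sequencing reads. The strand setting of the counting is not given in the sources used here, so reads in that overlap cannot be told apart. Akap9 itself was at 142 to 252 CPM in db/db (median 217) and at 242 to 277 CPM in db/m (median 260.4), a log2 fold change of -0.37 (SE 0.11; adjusted p = 0.0480 by edgeR). That call ended in 13 of 17 fits that left out 1 library (adjusted p = 0.0571 to 0.0999 by edgeR) and in 7 of 8 other settings, RLE scaling among them (adjusted p = 0.0502 to 0.107 by edgeR); it held by DESeq2 (adjusted p = 0.0284). The fall of Akap9 was smaller than that of Cyp51, and its part in the Cyp51 result was not tested.

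**Figure D3:**
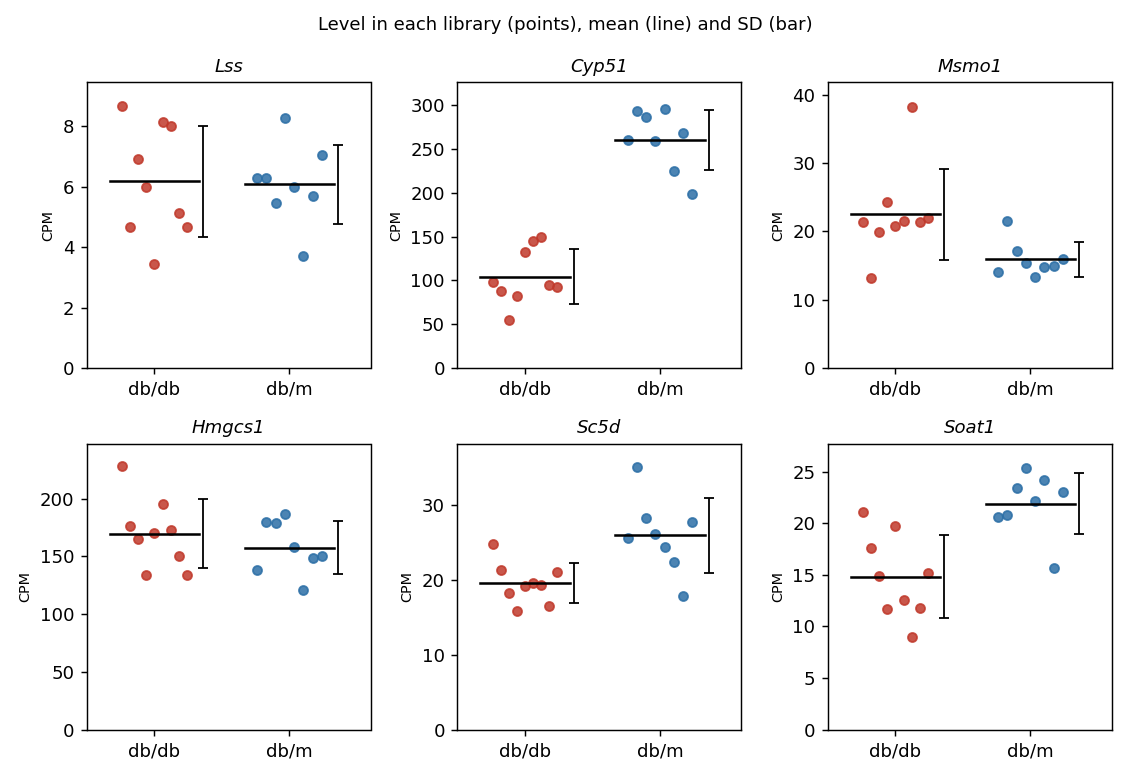
Level in CPM of 6 genes in each library (points), with the group mean (line) and SD (bar), db/db (n = 9) left and db/m (n = 8) right; every vertical axis starts at 0. Lss, Cyp51 and Msmo1 fill the top row, where Cyp51 alone separates the groups, and Hmgcs1, Sc5d and Soat1 the bottom row.

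The other enzymes of the sterol arm showed small differences of either sign. Squalene synthase Fdft1, which commits farnesyl diphosphate to sterols, was at 4.92 to 7.70 CPM in db/db (median 5.36) and 2.76 to 6.05 CPM in db/m (median 4.22), with a log2 fold change of 0.45 (SE 0.19; adjusted p = 0.162 by edgeR). Fdft1 overlaps Ctsb, a cathepsin gene on the opposite strand, at the 3′ ends of both; Ctsb had a log2 fold change of 0.27 (SE 0.10; adjusted p = 0.101 by edgeR). Squalene epoxidase Sqle was at 22.8 to 52.4 CPM in db/db (median 41.7) and 23.1 to 40.6 CPM in db/m (median 30.4), and 5 of the 9 db/db animals, replicates 4 to 8, exceeded every db/m animal (log2 fold change 0.29, 95% interval -0.04 to 0.62; adjusted p = 0.313 by edgeR). Without the 5 libraries that stood apart, it was at 0.12. Sc5d, the desaturase near the end of the pathway, was at 15.9 to 24.9 CPM in db/db (median 19.4) and 17.9 to 35.1 CPM in db/m (median 25.9). Its log2 fold change of -0.40 (SE 0.13; adjusted p = 0.0572 by edgeR) missed the threshold, and passed without db/db replicate 1 (adjusted p = 0.0254 by edgeR), without db/m replicate 7 (adjusted p = 0.0232 by edgeR) and by DESeq2 (adjusted p = 0.0346).

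Ebp, the sterol isomerase, had the narrowest interval of the members around a value near 0 (log2 fold change -0.09, 95% interval -0.28 to 0.10). It was at 139.7 to 185 CPM in db/db and 126 to 194 CPM in db/m, and its log2 fold change was -0.18 without the 5 libraries that stood apart. Of the demethylating enzymes after Msmo1, Nsdhl was at 0.27 (95% interval -0.10 to 0.64) and Hsd17b7 at -0.03 (95% interval -0.33 to 0.28), both as log2 fold changes. Dhcr7, which takes the last step of one branch, was at 0.35 (95% interval -0.03 to 0.73). In the absence of those 5 libraries Nsdhl was at -0.04, Hsd17b7 at -0.08 and Dhcr7 at 0.23. Tm7sf2, a sterol reductase, was too low to test, with 70 counts over db/db and 52 over db/m, a ratio of 1.29 per gene count sequenced (95% interval 0.890 to 1.89, counting error only).

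In the mevalonate arm none of 6 tested enzymes was called by edgeR or DESeq2, and 2 had an unadjusted p under 0.05, Pmvk and Fdps. Hmgcs1, the cytosolic HMG-CoA synthase, was at 134 to 228 CPM in db/db (median 170.4) and 121 to 186 CPM in db/m (median 154), with a log2 fold change of 0.11 (95% interval -0.14 to 0.35; adjusted p = 0.653 by edgeR). The interval allows a fall to 0.911-fold as well as a rise of up to 1.27-fold. Acat2, the cytosolic thiolase that starts the pathway, was at 0.03 (95% interval -0.25 to 0.32) and mevalonate kinase Mvk at 0.02 (95% interval -0.32 to 0.36), both as log2 fold changes. For all 3 the groups overlapped, and without the 5 libraries that stood apart the log2 fold changes were 0.07 for Hmgcs1, -0.19 for Acat2 and 0.05 for Mvk.

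Pmvk, Mvd and Fdps carry mevalonate phosphate to farnesyl diphosphate. Mvd and Fdps were led by a few db/db animals, while for Pmvk db/db replicates 2, 3, 7, 8 and 9 lay above every db/m animal. Pmvk was at 6.67 to 37.3 CPM in db/db (median 14.7) and 5.81 to 14.6 CPM in db/m (median 11.7), with a log2 fold change of 0.68 (SE 0.26; adjusted p = 0.121 by edgeR). Without db/db replicate 1 it was 0.79 and passed (adjusted p = 0.0319 by edgeR). Fdps was at 4.67 to 22.5 CPM in db/db (median 7.36) and 3.22 to 9.74 CPM in db/m (median 5.51), with a log2 fold change of 0.83 (SE 0.31; adjusted p = 0.116 by edgeR). Mvd was at 61.5 to 273 CPM in db/db (median 85.3) and 45.3 to 122 CPM in db/m (median 98.7), so its db/db median was below that of db/m while its mean was above. Db/db replicates 7 and 8 held the 2 highest values of all 17 animals for Mvd, Pmvk, Fdps and Nsdhl. They stood at the upper end of the first principal component too. Leaving out the 5 libraries that stood apart, the log2 fold change was 0.44 for Pmvk, 0.39 for Fdps and -0.34 for Mvd, and leaving out db/db replicate 8 alone it was -0.02 for Mvd. Fdps and Mvd each share their annotated 3′ end with another annotated gene, Gm43738 on the same strand and Gm20388 on the opposite strand, so their counts are less certain.

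Idi1, which isomerises isopentenyl diphosphate, was barely detected: the 9 db/db libraries held 1 count in all and 8 had none, and the 8 db/m libraries held 13 counts and 2 had none. The ratio per gene count sequenced was 0.0739 in db/db over db/m (95% interval 0.00174 to 0.492, counting error only). In a fit of all 25107 genes with any count, the edgeR adjusted p was 0.0614. No library had more than 3 counts, the limit that a count of 0 allows.

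**Figure D4:**
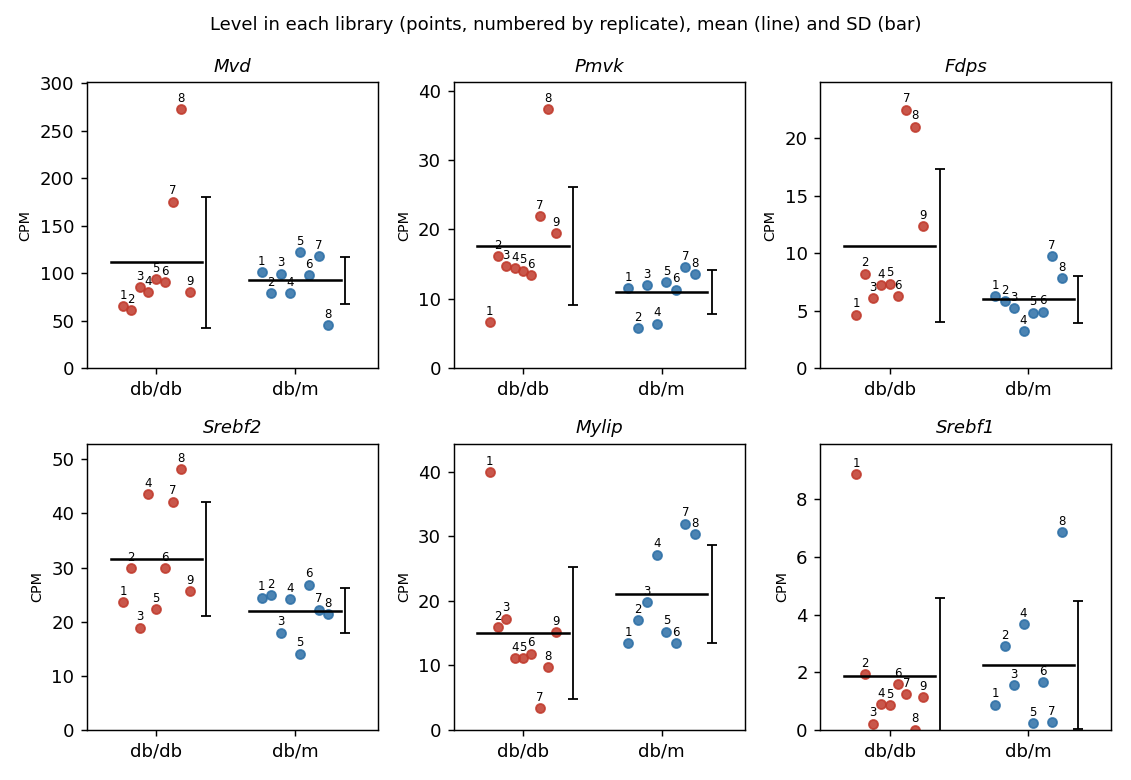
Level in CPM of 6 genes in each library (points, numbered by replicate), with the group mean (line) and SD (bar), db/db (n = 9) left and db/m (n = 8) right; every vertical axis starts at 0. Db/db replicates 7 and 8 are highest for Mvd, Pmvk and Fdps, and db/db replicate 1 is highest for Mylip and Srebf1.

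Among the regulators, Srebf2, which encodes the SREBP that drives sterol synthesis, was at 18.9 to 48.2 CPM in db/db (median 29.9) and 14.1 to 26.8 CPM in db/m (median 23.2). Of the 9 db/db animals, replicates 2, 4, 6, 7 and 8 lay above every db/m animal, and the others lay within the db/m range. The log2 difference was 0.51 (95% interval 0.13 to 0.90, SE 0.18; edgeR adjusted p = 0.102), and no fit that left out 1 library brought it past the threshold (adjusted p = 0.0516 to 0.180 by edgeR). Scap was at 0.04 (95% interval -0.23 to 0.31) and Insig2 at 0.08 (95% interval -0.26 to 0.43), both as log2 fold changes and short of the threshold; Scap was at 0.09 and Insig2 at -0.00482 without the 5 libraries that stood apart. Neither edgeR nor DESeq2 called any of these 3.

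Insig1, the INSIG gene that SREBP itself raises, was too low to test, with 118 counts over db/db and 70 over db/m. Its ratio per gene count sequenced was 1.62 (95% interval 1.19 to 2.21, counting error only), and the fit of all genes with any count gave an edgeR adjusted p of 0.322. Srebf1, which encodes the SREBP of fatty acid synthesis, had 74 counts over db/db and 88 over db/m (ratio 0.807, 95% interval 0.585 to 1.11, counting error only). Of those 74 counts, 40 came from db/db replicate 1, and 36 of the 88 came from db/m replicate 8. Srebf1 shares its annotated 3′ end with a gene on the opposite strand, so its counts are less certain. The 2 libraries lie at the same end of the first principal component, at -40.6 and -44.3.

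The relation between members within a group was examined for Hmgcs1 with Sqle, Idi1, Cyp51 and Insig1, as log2 CPM. Pearson's r ran from -0.195 to 0.631 over the 8 relations, and none passed adjustment (lowest adjusted p = 0.706 by exact permutation for r, and 0.631 for rho). For Hmgcs1 with Cyp51 in the 9 db/db animals, r was 0.311 (p = 0.418, exact permutation) and rho 0.50 (p = 0.178). In the 8 db/m animals r was 0.533 (p = 0.177, exact permutation) and rho 0.381 (p = 0.360). Without the 2 libraries farthest from the median of Hmgcs1, r was 0.470 in db/db (exact permutation p = 0.296) and 0.489 in db/m (exact permutation p = 0.374). For Hmgcs1 with Sqle, both SREBP targets, r was -0.181 in db/db (p = 0.637, exact permutation) with rho -0.233 (p = 0.552). In db/m r was -0.0800 (p = 0.867, exact permutation) with rho -0.143 (p = 0.752). Without 2 libraries r was -0.190 in db/db and -0.201 in db/m (p = 0.703 and 0.728, exact permutation). For Insig1 in db/db, r was -0.195 (p = 0.612, exact permutation) with rho -0.267 (p = 0.493), and r was -0.606 without 2 libraries (p = 0.146, exact permutation). The highest r, 0.631 for Insig1 in db/m (p = 0.0933, exact permutation) with rho 0.50 (p = 0.216), was 0.243 without 2 libraries (exact permutation p = 0.697). The relations with Idi1 rest on too few counts to be read.

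Soat1, sterol O-acyltransferase, turns free cholesterol into esters for storage. It was at 8.93 to 21.1 CPM in db/db kidneys, with a median of 14.9 CPM. In db/m kidneys it was at 15.7 to 25.3 CPM, with a median of 22.6 CPM. Only db/db replicate 1, at 21.1 CPM, reached the range of 20.6 to 25.3 CPM that held 7 of the 8 db/m animals, and db/m replicate 7, at 15.7 CPM, lay within the db/db range. Its log2 fold change was -0.56 (95% interval -0.88 to -0.24, SE 0.16; edgeR adjusted p = 0.0296). The call ended on leaving out any 1 of db/db replicates 4, 6 and 9 or db/m replicates 3, 4, 5 and 6, at an edgeR adjusted p of 0.0507 to 0.0685 and a log2 fold change of -0.56 to -0.52. It also ended at 0.0624 (edgeR adjusted p) without the 5 libraries that stood apart, where the log2 fold change was -0.48.

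Macrophages, which store cholesterol esters, express Soat1. Of 7 tested macrophage markers none was called by edgeR. All 7 had negative log2 fold changes, with a median of -0.53, and 3 had an unadjusted p under 0.05. The markers too low to test were Cd68, with 69 counts over db/db and 86 over db/m, and Adgre1, with 60 over db/db and 42 over db/m. The summed level of the list ran from 110 to 335 CPM in db/db (median 212) and from 198 to 382 CPM in db/m (median 298). The part of these cells in the Soat1 result was not tested.

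Stard4, a carrier of cholesterol between membranes, was at 26.4 to 73.1 CPM in db/db (median 45.7) and 27.1 to 49.1 CPM in db/m (median 33.5), with a log2 fold change of 0.42 (SE 0.17; adjusted p = 0.147 by edgeR). Db/db replicates 1, 7 and 8 exceeded every db/m animal, and replicate 4 lay below every one. Replicates 1, 7 and 8 are among the 5 libraries that stood apart, without which the log2 fold change of Stard4 was 0.07. In the LXR system none of 4 genes passed the test by edgeR or DESeq2, and none had an unadjusted p under 0.05. The receptor genes Nr1h2 and Nr1h3 were at -0.13 (95% interval -0.51 to 0.24) and 0.02 (95% interval -0.25 to 0.29), as log2 fold changes. Abca1, the exporter of cholesterol to lipoprotein particles, was at 3.08 to 20.7 CPM in db/db (median 12.7) and 10.6 to 27.1 CPM in db/m (median 15.2), a log2 fold change of -0.42 (95% interval -0.99 to 0.14), which was -0.06 without those 5 libraries. Without them Nr1h2 was at -0.000355 and Nr1h3 at -0.12. Mylip, a ubiquitin ligase that LXR raises and that removes lipoprotein receptors, was at 3.39 to 39.995 CPM in db/db (median 11.8) and 13.4 to 31.9 CPM in db/m (median 18.4), a log2 fold change of -0.47 (SE 0.31; adjusted p = 0.421 by edgeR). Db/db replicate 1 held the highest value of all 17 animals. Without it, Mylip was at -0.80 and passed the test (adjusted p = 0.0463 by edgeR).

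Other genes of sterol metabolism were read from fixed lists. Over all tested genes 3.49% were called lower and 3.91% higher, so a single call does not set a list of this size apart. Of 7 tested genes of oxysterol and bile acid synthesis, 1 was lower, Cyp7b1, and 1 higher, Acox2. Cyp7b1, which hydroxylates oxysterols, was at 2.10 to 22.8 CPM in db/db (median 5.70) and 89.7 to 124 CPM in db/m (median 103), and the groups did not overlap. Acox2, a peroxisomal oxidase that shortens the bile acid side chain, was at 21.6 to 52.0 CPM in db/db (median 36.9) and 17.7 to 22.8 CPM in db/m (median 18.9), a log2 fold change of 0.95 (SE 0.15; adjusted p = 0.000264 by edgeR). The list's median was -0.05.

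Of 17 genes of sterol uptake, lysosomal release and transport, 1 was lower, Nceh1, and 1 higher. Nceh1, a hydrolase of neutral cholesterol esters that works against Soat1, was at 83.2 to 232 CPM in db/db (median 202) and 199 to 324 CPM in db/m (median 275), a log2 fold change of -0.62 (SE 0.16; adjusted p = 0.0190 by edgeR).

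In the list of SREBP processing and sterol sensing, 1 of 10 tested genes was lower. Of 11 genes of the isoprenoid branch, 1 was lower, Rabggta, the alpha subunit of the enzyme that prenylates Rab proteins (log2 fold change -0.53, SE 0.14; adjusted p = 0.0227 by edgeR). That call ended without db/m replicate 2 or 4 (adjusted p = 0.0532 and 0.0615 by edgeR). Of 13 tested lipogenic targets of SREBP, 1 was lower, the malic enzyme Me1, which supplies NADPH for lipid synthesis. Me1 was at 42.2 to 118 CPM in db/db (median 61.7) and 103 to 243 CPM in db/m (median 165), a log2 fold change of -1.28 (SE 0.20; adjusted p = 0.000274 by edgeR). The medians of these 3 lists were -0.10, -0.05 and -0.20, beside 0.00 over all tested genes.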

How the data were processed

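The labels' protocols name a forward QuantSeq 3′ kit on polyadenylated RNA. The authors deposited raw counts per Ensembl gene. The submitters' processing notes name STAR 2.7.3a, HTSeq 2.16.2 and the human build GRCh38, although the identifiers are mouse genes. For the mouse build, annotation, strand setting and molecular identifiers, nothing is given in the sources used here. Lines for reads outside genes (19.3% of all reads in the table) and for ambiguous reads (0.533%) were left out. The same protocol speaks of cultured cells, while titles and tissue field give kidney. All db/db libraries have higher library numbers than the db/m libraries, so a batch that followed the number and the group cannot be told apart. Within each group no library copied another (lowest chi-square per degree of freedom 3.83 over 64 pairs). Pairs between the groups were not checked.

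Counts were tested with edgeR 4.0.16 in R 4.3.3 (quasi-likelihood F-test, db/db against db/m, all 17 libraries, no covariate). Genes were kept by filterByExpr at a minimum count of 10 (12131 genes) and scaled by TMM. P-values were adjusted over all tested genes by the Benjamini-Hochberg method and called under 0.05. Log2 CPM used a prior count of 2, intervals are at the 95% level, and limits of 3 counts cover counting error only. DESeq2 1.42.0, RLE scaling, no filter, robust dispersion, scaling without mitochondrial genes and Kap, a replicate block and leaving out each library were tried. Ratios and correlations used exact permutation tests, two-sided. The members, gene lists and tests were chosen with earlier results of these data known. Every member is named; of the other sterol lists called genes are named, up to 4 per list by smallest p, except that some are not reported here, and marker lists are given by counts, with up to 2 genes. Akap9, Ctsb and the S3 marker Slc5a10 were added after their values were seen. Symbols came from a table of mouse gene names (55141 of 55487 identifiers matched), chromosomes and overlaps from GENCODE M21.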

Additional observations from a re-analysis of the deposited data

Results flagged for a closer look

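Within each group, the highest and lowest value of each of the 29 genes were checked for standing far from the rest of the group (log2 CPM). Of 58 groups checked, 9 held such a value, and chance flags about 1 in 20. In db/db, replicate 7 was low for Abca1 at 3.08 CPM, where the other animals were at 8.13 to 20.7 CPM, and high for Ebp at 185 CPM, against 139.7 to 155 CPM in the others. Db/db replicate 8 was low for Nr1h2 at 14.6 CPM (24.2 to 36.02 in the others) and for Scap at 30.1 CPM (44.9 to 66.9 in the others). Both libraries lie at the upper end of the first principal component. Db/db replicate 6 had the single Idi1 count of its group, 0.262 CPM. In db/m, replicate 8 was low for Mvd at 45.3 CPM (78.9 to 122 in the others) and for Nsdhl at 37.9 CPM (51.4 to 63.2 in the others). That library had the highest sum of adipocyte markers, 904 CPM, against 16.5 to 193 CPM in the other db/m animals; the part of fat cells was not tested. Db/m replicate 5 was low for Nr1h2 at 15.4 CPM (25.2 to 37.5 in the others), and db/m replicate 7 for Soat1 at 15.7 CPM (20.6 to 25.3 in the others).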

How the results depend on the processing

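Cyp51 was called lower under every alternative tried, with a log2 fold change of -1.46 to -1.30 over the other settings and -1.40 to -1.24 when 1 library was left out. Both Cyp51 ratios kept their direction and call (differences of -1.88 to -1.71 for Msmo1 and -1.49 to -1.23 for Lss when 1 library was left out). The number of members called lower was 2, but 1 (Cyp51) with no low-count filter, with replicates 1 to 8 only, and without the 5 libraries that stood apart, these last 2 settings chosen after the data were seen; over the 17 fits that left out 1 library it ran from 1 to 4. It was 3 (with Sc5d) by DESeq2 and when scaled without mitochondrial genes and Kap. The number called higher was 0, but 1 (Msmo1) by DESeq2, and 0 to 1 when 1 library was left out. Causes were not tested. Same-numbered animals of the groups share only a number: the correlation of their deviations ran from -0.454 to 0.212, over 0.1 for 2 of 8 pairs, and 1 of 8 db/db animals correlated best with its own number. With the replicate number as a block, 1 member was called lower, with 194 genes higher and 231 lower in all (380 and 352 in the same 16 libraries without the block), the calls of Soat1, Nceh1 and Rabggta ended (edgeR adjusted p = 0.0739, 0.0923 and 0.132), and the Cyp51 ratios differed by -1.79 and -1.38 (exact sign-flip p = 0.00781 each). Of the members not called, Acat2, Mvk, Lss, Hsd17b7, Nsdhl, Mvd, Scap, Insig2 and Nr1h3 changed sign in at least 1 setting. No scaling moved the median of all genes by over 0.1. Idi1, Tm7sf2, Srebf1 and Insig1 had too few counts to test, and the reason for their low counts was not tested.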
